A study of Drosophila melanogaster with 4 samples.

Results

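The genes described here are the components through which Drosophila senses microbes and signals their presence: the peptidoglycan recognition proteins (PGRPs), the GNBPs, and the Toll, Imd and JAK-STAT pathways. Their values come from 4 mRNA-seq libraries of adult male heads. They were taken from the gene table by name, as every row whose symbol starts with PGRP- or GNBP plus a list of pathway components, which gave 38 of 16680 gene rows. All 34 listed names had a row, and the name prefix added PGRP-LD, PGRP-SB2, PGRP-SC1a and PGRP-SC1b. The effector peptides at the end of the pathways are not among the 38. The rule used names and no measured values, but the genes were chosen with earlier results of these data known.

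Secreted PGRPs and GNBPs bind bacterial peptidoglycan or fungal glucan in the hemolymph and start a cascade of serine proteases that cleaves Spätzle, the ligand of the receptor Toll. Toll signalling then destroys the inhibitor Cactus and frees the NF-kB factors Dif and Dorsal. The Imd pathway starts instead at membrane or intracellular PGRPs, runs through an adaptor, a caspase and kinases, and activates the NF-kB factor Relish, while PGRPs with amidase activity digest the peptidoglycan that would set it off. In the JAK-STAT pathway, secreted Unpaired cytokines bind the receptor Domeless, and the kinase Hopscotch activates the transcription factor Stat92E. In adult flies the fat body, which also lines the inside of the head, and blood cells are the main sites of these responses.

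The flies were F1 progeny of parents kept on food with hexavalent chromium, Cr(VI), and all of them carried Kr[If-1], a spontaneous gain-of-function allele of the transcription factor gene Krüppel, in a stock that also holds the b1 allele. Flies with the allele serve as a sensitised background in which variation of the eye can be scored. There were 2 libraries of flies with phenotypic variations and 2 of flies without them, each made from the RNA of 10 pooled heads, and the labels call the repeats biological. Parental exposure and genotype were thus shared by both groups, no library of progeny from unexposed parents was used here, and the sources used here do not state the age of the adults. The comparison asks which transcripts differ between flies of 1 genotype and exposure that did and did not show an eye phenotype. In RNA of pooled heads, fewer cells of a type and less RNA per cell cannot be told apart.

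The unit was FPKM per gene, that is reads scaled to transcript length and to the size of the library, so levels could be set side by side between genes of different length. The number of reads is unknown, and the lowest values showed 1 read to be worth about 0.0179 and 0.0207 FPKM with phenotype and 0.0200 and 0.0181 FPKM without phenotype for a transcript of 1 kilobase. The head label was borne out by the photoreceptor opsin gene ninaE, at 948 and 665 FPKM with phenotype and 773 and 544 FPKM without phenotype. Marker lists of other tissues were present as well. Summed FPKM of 15 muscle genes was 5853 and 5399 with phenotype, against 8387 and 7632 without phenotype, and 13 of the 15 were lower with no overlap between the groups (86.7%, beside 18.3% of all genes tested). Summed FPKM of 13 genes listed as markers of adult fat body was 2737 and 2283 with phenotype and 2419 and 1193 without phenotype. None of them was at 0 in any library. In these sums the gene to held 976 and 984 with phenotype and 51 and 76 without phenotype. Lsp2 held 406 and 147 with phenotype and 1348 and 293 without phenotype. With no overlap, 6 of the 13 were higher and 3 lower (46.2% and 23.1%, beside 41.3% and 18.3% of all genes tested). In the test described below, to passed as higher and Fbp2 as lower, where 0.0589% and 0.0294% of all genes tested did. Summed FPKM of 14 hemocyte genes was 354 and 262 with phenotype and 355 and 307 without phenotype. Of 35 digestive enzyme genes of the gut, summed FPKM was 107 and 338 with phenotype and 623 and 82.8 without phenotype, so the 2 repeats of a group differed more than the groups did, and Jon66Ci was listed at 0 in all libraries. The part of these tissues in the differences below was not tested.

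Most pathway components were well expressed in the head, and none of the 36 that could be tested changed at the threshold of the comparison. Genes that averaged 1 FPKM or more were compared on log2(FPKM + 1) by limma, two-sided, with Benjamini-Hochberg adjustment over 10194 genes and a threshold of 0.1, and a fold change on this scale understates that of weakly expressed genes. Over all genes 6 passed as higher with phenotype (0.0589%) and 3 as lower (0.0294%), and of the 36 pathway genes 0 passed in either direction, with a smallest adjusted p of 0.133 (limma) for PGRP-SC1b. At an unadjusted limma p under 0.05, PGRP-SB1 and Stat92E were higher (2 of 36, 5.56%, against 16.0% of all genes), and PGRP-SC1b, PGRP-LB, PGRP-LC and PGRP-LA were lower (4 of 36, 11.1%, against 6.67% of all genes). With 2 libraries a side, an exact permutation test cannot give a two-sided p below 0.33, so the values of each library are given throughout.

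In 10 of the 36 genes the lower library with phenotype exceeded the higher library without it (27.8%, against 41.3% of all genes), in 10 the order was the opposite (27.8%, against 18.3% of all genes), and in 16 the groups overlapped. The log2 fold changes of the 36 ran between -1.34 and 0.67 with a median of -0.02, beside a median of 0.07 over all genes. The balance of directions depended on the scaling. With median ratio scaling, which moved the median of all genes to -0.01, the groups did not overlap in 7 genes that were higher and 17 that were lower, beside 29.2% of all genes in either direction. With upper quartile scaling it was 9 higher and 15 lower, beside 41.6% and 19.4% of all genes.

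**Figure D1:**
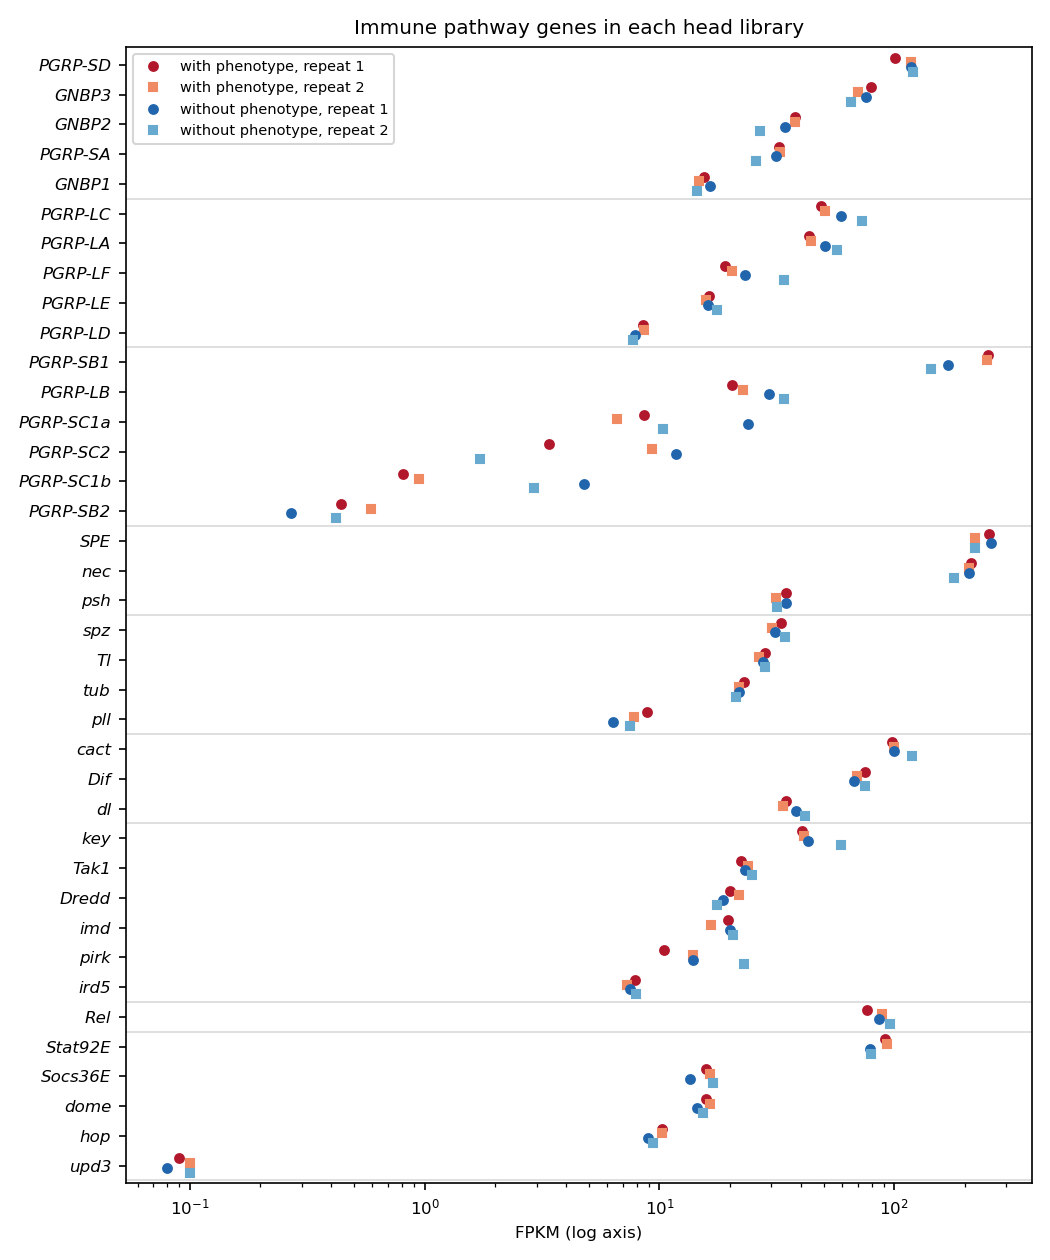
Level of the 38 genes in each library, in FPKM on a log axis, grouped by role from secreted recognition proteins at the top to JAK-STAT at the bottom; red and orange points are the libraries with phenotype and dark and light blue points those without. SPE, PGRP-SB1 and nec are the highest rows and upd3 the lowest, and PGRP-SB1 is the only 1 of these 3 whose groups stand apart.

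The levels themselves spanned a wide range. SPE, PGRP-SB1 and nec stood at percentiles 95.6, 94.8 and 94.8 of the level of all genes tested, PGRP-SD at 91.0, cact at 90.1, Rel at 88.5 and Stat92E at 88.3. At the other end were PGRP-SC2 at percentile 25.9 and PGRP-SC1b at 9.81. PGRP-SB2 and upd3 averaged under 1 FPKM and were not tested.

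The secreted recognition proteins upstream of Toll were close in both groups, with GNBP2 differing most. PGRP-SD, a secreted PGRP that helps in sensing bacteria, was the highest of the 5, at 101 and 118 FPKM with phenotype and 117 and 120 FPKM without phenotype. The groups overlapped, with a log2 fold change of -0.12 (adjusted p = 0.538, limma). GNBP2, a member of the family named for binding Gram-negative bacteria, was at 37.6 and 37.7 FPKM with phenotype and 34.4 and 26.8 FPKM without phenotype. Both libraries with phenotype were above both without, by 0.30 ± 0.14 on the log2 scale (SE, n = 2 libraries per group, limma adjusted p = 0.265), and repeat 2 without phenotype was the low one.

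PGRP-SA, which senses Lys-type peptidoglycan of Gram-positive bacteria, was at 32.2 and 32.7 FPKM with phenotype and 31.2 and 25.8 FPKM without phenotype. These did not overlap, but most of the gap again came from repeat 2 without phenotype, and the log2 fold change was 0.19 (adjusted p = 0.369, limma). GNBP1, the partner of PGRP-SA in this recognition, was at 15.5 and 14.7 FPKM with phenotype and 16.4 and 14.4 FPKM without phenotype. GNBP3, the sensor of fungal beta-glucan, was at 79.2 and 70.2 FPKM with phenotype and 76.1 and 65.4 FPKM without phenotype. Repeats of 1 group thus differed more in GNBP1 and GNBP3 than the groups did, and the sign of both differences turned when single libraries were left out. GNBP2 and GNBP1 are neighbours that are read in opposite directions on chromosome 3L, at 18673474 to 18675413 and 18675800 to 18677876 in the dm6 assembly, with 386 bases between them.

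Among the receptors of the Imd pathway, 3 neighbouring genes were lower with phenotype with no overlap, although none passed the test, and the intracellular receptor overlapped. PGRP-LC, the main receptor for DAP-type peptidoglycan at the cell surface, was at 48.6 and 50.9 FPKM with phenotype, against 59.3 and 72.8 FPKM without phenotype. Its means were 49.7 ± 1.65 and 66.1 ± 9.55 FPKM (SD, n = 2 libraries each) and the groups did not overlap. The log2 fold change was -0.40 ± 0.12 (SE, 95% interval -0.73 to -0.07), with an adjusted p of 0.186 from limma. PGRP-LF, which lacks peptidoglycan binding and dampens PGRP-LC, had 19.0 and 20.3 FPKM with phenotype and 23.1 and 34.0 FPKM without phenotype. Here too the groups did not overlap, and the difference of -0.49 ± 0.19 on the log2 scale (adjusted p = 0.231, limma) came largely from repeat 2 without phenotype. PGRP-LA, a regulator of Imd signalling in barrier epithelia, was at 43.2 and 44.2 FPKM with phenotype and at 50.5 and 56.9 FPKM without phenotype, again with no overlap (log2 fold change -0.29 ± 0.09, adjusted p = 0.190, limma).

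These 3 genes lie in a row on the same strand of chromosome 3L, PGRP-LA at 9334332 to 9338336, PGRP-LC at 9338810 to 9348336 and PGRP-LF at 9349609 to 9351489 (dm6), with 473 and 1272 bases between them. Their summed FPKM was 110.8 and 115.5 with phenotype, against 133 and 164 without phenotype, 1.31-fold lower by the means. Within the cluster the proportions moved little. PGRP-LA stood at 0.889 and 0.869 of the FPKM of PGRP-LC with phenotype and at 0.852 and 0.781 without phenotype, and PGRP-LF at 0.392 and 0.400 of it with phenotype and at 0.388 and 0.467 without phenotype. Of the exon bases of PGRP-LF, 44.4% are also covered by exons of UGP on the other strand. UGP was at 314 and 279 FPKM with phenotype and 515 and 350 FPKM without phenotype, and since the library kit did not mark strand, reads of the 2 genes cannot be told apart there.

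The remaining PGRPs of this class did not share the pattern. PGRP-LE, the receptor for peptidoglycan fragments inside the cell, was at 16.2 and 15.8 FPKM with phenotype and 16.1 and 17.6 FPKM without phenotype, with overlap and a log2 fold change of -0.07 (adjusted p = 0.604, limma). PGRP-LD was at 8.54 and 8.59 FPKM with phenotype and 7.86 and 7.68 FPKM without phenotype, without overlap, and 90.0% of its exon bases are shared with other genes on its strand. Of the 5 genes in the group 1 was higher and 3 were lower with no overlap (beside 41.3% and 18.3% of all genes), with a median log2 fold change of -0.29.

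**Figure D2:**
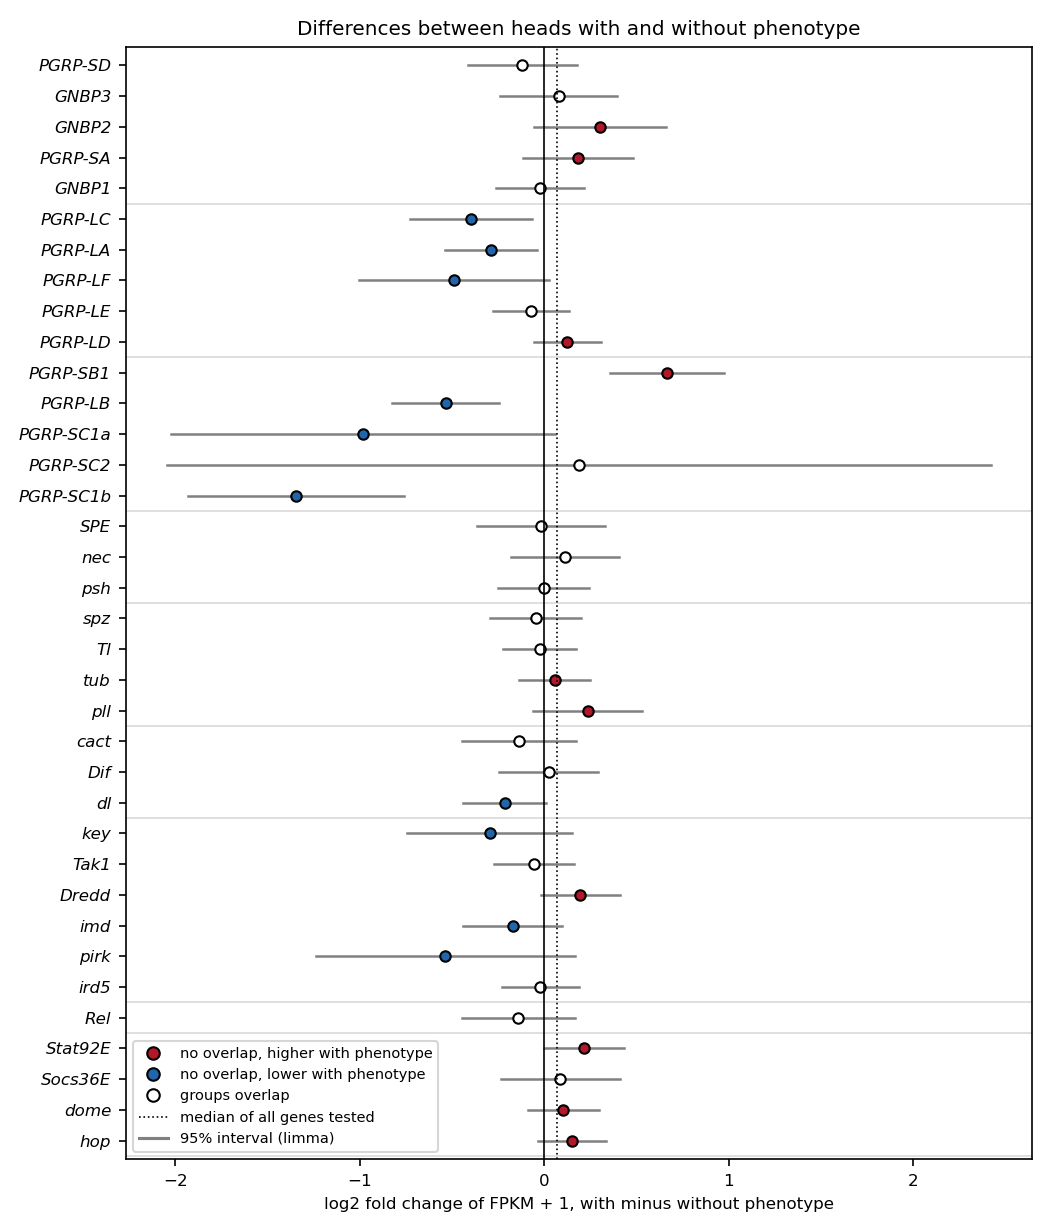
Difference between heads with and without phenotype for the 36 genes tested, as the log2 fold change of FPKM + 1 with its 95% interval from limma; red points are higher and blue points lower with phenotype with no overlap between the groups, white points overlap, and the dotted line is the median of all genes tested at 0.07. PGRP-SB1 at 0.67 lies farthest to the right and PGRP-SC1b at -1.34 farthest to the left, while the intervals of all Toll components include 0.

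The amidases, which cut peptidoglycan, held the largest differences of all 38 genes, and they went in opposite directions. PGRP-SB1, a secreted amidase, was the most abundant PGRP in every library, at 249.6 and 248 FPKM with phenotype, against 170 and 144 FPKM without phenotype. The means were 249 ± 1.03 and 157 ± 18.2 FPKM (SD, n = 2 libraries each), 1.59-fold higher with phenotype, and the groups were far from overlapping. On the log2 scale the difference was 0.67 ± 0.12 (SE, 95% interval 0.36 to 0.98), with an adjusted p of 0.134 from limma. PGRP-SB1 lies on chromosome 3L at 16727299 to 16727989 (dm6), 10 bases from PGRP-SB2 on the opposite strand at 16726541 to 16727288. PGRP-SB2 itself was at 0.44 and 0.59 FPKM with phenotype and 0.27 and 0.42 FPKM without phenotype, which corresponds to roughly 16.9 and 19.6 reads with phenotype and 9.31 and 15.9 reads without phenotype. Of this pair PGRP-SB1 thus accounted for nearly all transcripts in heads.

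PGRP-LB, an amidase that is a target of Imd signalling and feeds back on it, was at 20.4 and 22.6 FPKM with phenotype, against 29.2 and 34.1 FPKM without phenotype. Its means of 21.5 ± 1.58 and 31.6 ± 3.42 FPKM (SD, n = 2 libraries each) made it 1.47-fold lower with phenotype, and the groups did not overlap. The log2 fold change was -0.53 ± 0.11 (SE, 95% interval -0.82 to -0.24, adjusted p = 0.145, limma). It lies on chromosome 3R at 11452849 to 11460552. The FPKM of PGRP-SB1 over that of PGRP-LB was 12.2 and 10.97 with phenotype, against 5.81 and 4.23 without phenotype, a ratio within each library that no scaling can move.

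The 3 PGRP-SC genes, amidases best known from the gut, form a cluster on chromosome 2R, PGRP-SC1a at 8709733 to 8710320, PGRP-SC1b at 8713446 to 8715094 and PGRP-SC2 at 8716950 to 8717695. PGRP-SC1b was at 0.81 and 0.95 FPKM with phenotype, against 4.79 and 2.93 FPKM without phenotype. This was 4.39-fold lower by the means with no overlap, and the log2 fold change of -1.34 ± 0.22 (SE, 95% interval -1.93 to -0.76, adjusted p = 0.133, limma) was the largest among the 36 genes. PGRP-SC1a was at 8.59 and 6.58 FPKM with phenotype, against 23.8 and 10.4 FPKM without phenotype, a log2 fold change of -0.98 ± 0.39 (adjusted p = 0.234, limma). The 2 are near-identical copies between which reads may be split, so their sum is given as well, 9.40 and 7.53 FPKM with phenotype against 28.6 and 13.3 FPKM without phenotype, 2.48-fold lower by the means and without overlap. The size of this difference rested on repeat 1 without phenotype. Without that library the sum was 1.57-fold lower and the log2 fold change of PGRP-SC1a was -0.42, and without repeat 2 without phenotype they were 3.38-fold lower and -1.54.

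PGRP-SC2 was not separated by phenotype, at 3.39 and 9.33 FPKM with phenotype and 11.8 and 1.73 FPKM without phenotype. The 2 repeats of either group thus differed by more than the groups, and the log2 fold change of 0.19 ± 0.84 (adjusted p = 0.906, limma) ran between -0.93 and 1.30 when single libraries were left out. Its 4 libraries stood in the same order as the summed digestive enzymes given above, repeat 1 without phenotype highest and repeat 2 without phenotype lowest. PGRP-SC1a was also highest in repeat 1 without phenotype, but its lowest library was repeat 2 with phenotype, where the digestive enzymes were above those of repeat 1.

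**Figure D3:**
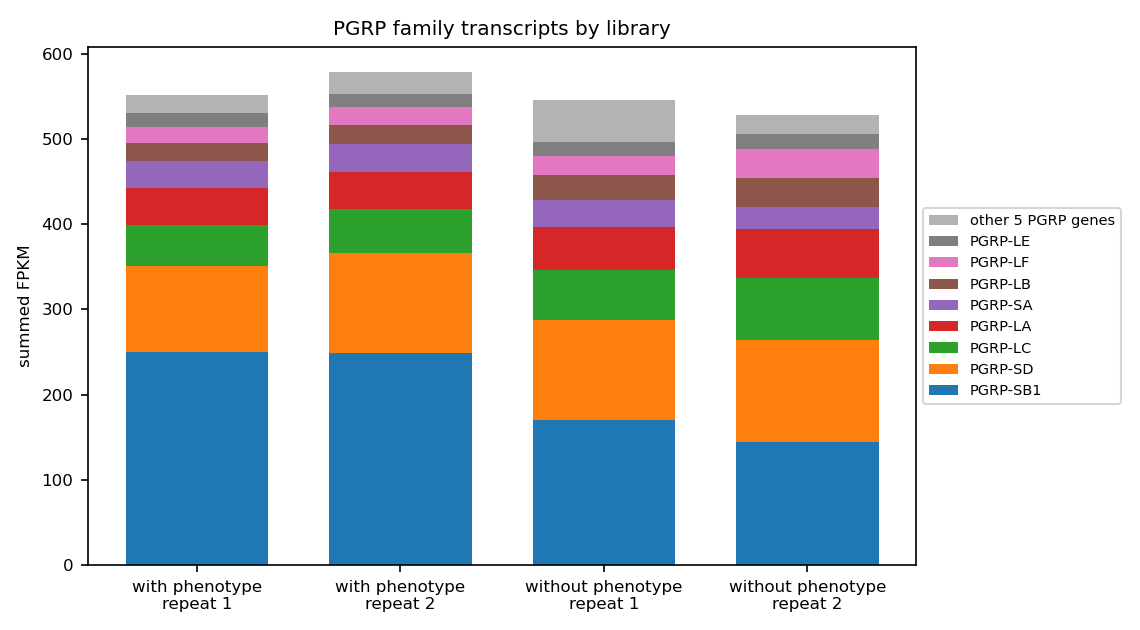
Summed FPKM of the 13 PGRP genes in each library, stacked by gene, with the libraries with phenotype on the left. The totals are close, from 528 to 579 FPKM, while PGRP-SB1 at the base of each bar makes up 45.2% and 42.9% of the total with phenotype and 31.1% and 27.2% without phenotype.

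As a family, the 13 PGRP genes were transcribed to a similar total in all heads, with a different make-up. Their summed FPKM was 552 and 579 with phenotype and 545 and 528 without phenotype. PGRP-SB1 took 45.2% and 42.9% of this sum with phenotype, against 31.1% and 27.2% without phenotype. PGRP-LA, PGRP-LC and PGRP-LF together took 20.1% and 20.0% with phenotype, against 24.4% and 31.0% without phenotype. The share of PGRP-SD was nearer between the groups, at 18.3% and 20.4% with phenotype and 21.5% and 22.7% without phenotype. In the 12 PGRP genes tested, 3 were higher and 6 were lower with no overlap (25.0% and 50.0%, beside 41.3% and 18.3% of all genes), and the median log2 fold change was -0.20. The 21 tested genes that are neither PGRP nor GNBP had 6 higher (28.6%), 4 lower (19.0%) and a median of -0.02.

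For SPE, nec and psh, the genes of the protease cascade among the 38, the groups overlapped. SPE, the protease that cleaves Spätzle, was the most abundant of the 38 genes by its mean, at 253 and 221 FPKM with phenotype and 258 and 221 FPKM without phenotype. The repeats 1 were alike and so were the repeats 2, and the log2 fold change was -0.02 (95% interval -0.36 to 0.33, adjusted p = 0.952, limma). The serpin gene nec, whose product restrains the cascade, was at 212 and 207 FPKM with phenotype and 208 and 180 FPKM without phenotype, with overlap and a log2 fold change of 0.11 (adjusted p = 0.554, limma). The FPKM of nec was 0.838 and 0.939 of that of SPE with phenotype and 0.808 and 0.816 of it without phenotype. The gene psh, for a protease that is cut by microbial proteases, was at 34.5 and 31.5 FPKM with phenotype and 34.6 and 31.5 FPKM without phenotype.

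Of 4 genes at the core of the Toll pathway, the groups overlapped for spz and Tl and did not overlap for tub and pll. Both of the latter were higher (50.0%, beside 41.3% of all genes), and 0 were lower (0.0%, beside 18.3% of all genes). The ligand gene spz was at 33.1 and 30.2 FPKM with phenotype and 31.2 and 34.2 FPKM without phenotype. The receptor gene Tl was at 28.2 and 26.5 FPKM with phenotype and 27.6 and 28.1 FPKM without phenotype, and the 95% interval of its log2 fold change ran from -0.22 to 0.18. The adaptor gene tub was at 23.0 and 21.9 FPKM with phenotype and 21.9 and 21.2 FPKM without phenotype, with no overlap but with the nearest libraries almost touching. The kinase gene pll differed most of these 4, at 8.82 and 7.78 FPKM with phenotype and 6.32 and 7.49 FPKM without phenotype. It was higher with no overlap, by 0.24 ± 0.11 on the log2 scale, and did not pass (adjusted p = 0.283, limma).

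Among the nuclear end of the pathway, the inhibitor and Dif overlapped while dl was lower. The inhibitor gene cact was at 97.5 and 100.1 FPKM with phenotype and 99.7 and 119 FPKM without phenotype, with a log2 fold change of -0.14 (adjusted p = 0.50, limma). The NF-kB gene Dif, the main Toll effector in adults, was at 75.0 and 69.7 FPKM with phenotype and 67.1 and 75.3 FPKM without phenotype. Its partner dl, better known from the embryonic axis, was at 34.7 and 33.6 FPKM with phenotype, against 38.0 and 41.6 FPKM without phenotype, with no overlap (log2 fold change -0.21 ± 0.09, adjusted p = 0.231, limma). The 2 genes are neighbours on the minus strand of chromosome 2L, Dif at 17413248 to 17433161 and dl at 17436830 to 17450364. The FPKM of Dif over that of dl was 2.16 and 2.07 with phenotype and 1.76 and 1.81 without phenotype. The FPKM of cact over the sum of Dif and dl was 0.889 and 0.969 with phenotype and 0.948 and 1.02 without phenotype, and overlapped. Over the 10 Toll genes downstream of recognition, 2 were higher and 1 was lower with no overlap (20.0% and 10.0%, both below the 41.3% and 18.3% of all genes), and the median log2 fold change was -0.01.

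Of the 6 cytoplasmic Imd components, 5 had a log2 fold change under 0, as did 3798 of all 10194 genes tested. Among the 5, Tak1 (-0.06) and ird5 (-0.02) lay near 0 and their groups overlapped. The genes pirk and key differed most, and none of the 6 passed the test. The gene key, for the regulatory subunit of the IKK complex, was the highest of the 6, at 40.6 and 41.4 FPKM with phenotype and 43.0 and 59.4 FPKM without phenotype. There was no overlap, but the log2 fold change of -0.30 ± 0.17 (adjusted p = 0.345, limma) rested mainly on repeat 2 without phenotype and was -0.07 without that library. The gene pirk, an inhibitor that acts on PGRP-LC and Imd and is itself induced by the pathway, was at 10.5 and 13.88 FPKM with phenotype and 13.95 and 23.0 FPKM without phenotype. The groups only just failed to overlap, and the log2 fold change of -0.54 ± 0.27 (95% interval -1.24 to 0.17, adjusted p = 0.297, limma) was -0.20 without repeat 2 without phenotype.

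The adaptor gene imd was at 19.5 and 16.5 FPKM with phenotype and 20.1 and 20.6 FPKM without phenotype, with a log2 fold change of -0.17. Dredd, the caspase of the pathway, went the other way, at 20.0 and 21.8 FPKM with phenotype and 18.6 and 17.6 FPKM without phenotype (log2 fold change 0.20 ± 0.08, adjusted p = 0.244, limma). Neither imd nor Dredd overlapped between the groups. The kinase gene Tak1 was at 22.2 and 23.8 FPKM with phenotype and 23.1 and 24.8 FPKM without phenotype. The kinase gene ird5, listed in the annotation as IKKbeta, was at 7.88 and 7.30 FPKM with phenotype and 7.51 and 7.91 FPKM without phenotype, so both kinases overlapped. Rel, the NF-kB factor of the pathway, was at 76.8 and 88.3 FPKM with phenotype and 86.0 and 96.1 FPKM without phenotype, also with overlap (log2 fold change -0.14, adjusted p = 0.488, limma). Over these 7 genes, 1 was higher and 3 were lower with no overlap (14.3% and 42.9%, beside 41.3% and 18.3% of all genes), and the median log2 fold change was -0.14.

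Of the 4 JAK-STAT genes tested, 3 were slightly higher with phenotype with no overlap, and none passed the test. Stat92E, the transcription factor, was at 91.0 and 93.3 FPKM with phenotype, against 79.0 and 79.3 FPKM without phenotype. The repeats were tight and the groups did not overlap, and the log2 fold change was 0.22 ± 0.08 (SE, 95% interval 0.00 to 0.43, adjusted p = 0.219, limma). It stayed between 0.20 and 0.23 when any single library was left out and was 0.13 with median ratio scaling. The receptor gene dome was at 15.8 and 16.5 FPKM with phenotype and 14.5 and 15.4 FPKM without phenotype. The kinase gene hop was at 10.2 and 10.3 FPKM with phenotype and 8.91 and 9.36 FPKM without phenotype. Both were higher with no overlap, by 0.11 and 0.15 on the log2 scale. Socs36E, a feedback inhibitor and target of Stat92E, was at 15.8 and 16.3 FPKM with phenotype and 13.4 and 16.9 FPKM without phenotype, and overlapped. The cytokine gene upd3 was at 0.09 and 0.10 FPKM with phenotype and 0.08 and 0.10 FPKM without phenotype, about 8.91 to 12.2 reads per library, so a difference was not detectable at this depth. The 4 tested genes had a median log2 fold change of 0.13, beside 0.07 over all genes, and the share of all genes that were higher with no overlap was 41.3%.

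**Figure D4:**
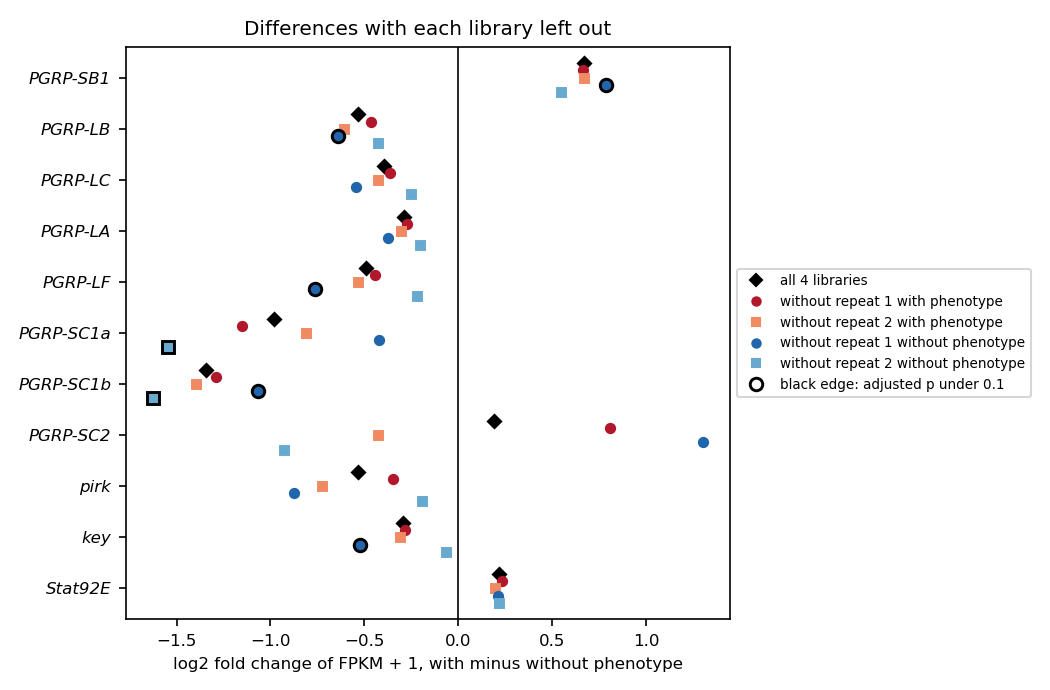
Log2 fold change of FPKM + 1 with minus without phenotype for 11 of the genes, with all 4 libraries (black diamonds) and with each library left out in turn (coloured points; a black edge marks an adjusted p under 0.1 from limma). PGRP-SC2 ranges from -0.93 to 1.30, and Stat92E moves least. Every gene shown except PGRP-SC2 keeps its side of 0, which is fixed in advance where the groups do not overlap.

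The result of the test rested on single libraries, and which genes passed changed with the library left out. Without repeat 1 without phenotype, log2 fold changes were -0.76 for PGRP-LF, 0.79 for PGRP-SB1, -1.06 for PGRP-SC1b, -0.64 for PGRP-LB and -0.52 for key. Without repeat 2 without phenotype they were -0.22, 0.55, -1.62, -0.43 and -0.07 in the same order. Each of these fits assumes that the lone library of a group varies like the pair of the other group, so only sizes are given here.

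The pathway genes were less even between the repeats without phenotype than those with it. The median absolute difference between repeats on the log2 scale was 0.088 with phenotype and 0.170 without phenotype over the 36 genes, beside 0.101 and 0.117 over all genes. It was wider without phenotype in 27 of the 36 (75.0%), beside 55.3% of all genes. Repeat 2 without phenotype was the highest library for 17 of the 36 (47.2%), beside 25.0% of all genes, and included PGRP-LC, PGRP-LA, PGRP-LF, PGRP-LB, cact, key, pirk and Rel.

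Other genes of the pathways gave no call either. Of 32 further Toll genes 22 were tested, 0 passed with limma, 8 were higher and 8 lower with no overlap (36.4% each, beside 41.3% and 18.3% of all genes), and the median log2 fold change was 0.00. At an unadjusted limma p under 0.05 there were 1 higher and 4 lower (4.55% and 18.2%, beside 16.0% and 6.67% of all genes). Those 4 were pip, a sulfotransferase that sets the embryonic axis, at 5.10 and 3.31 FPKM with phenotype against 8.58 and 9.46 FPKM without phenotype, the protease genes grass and modSP upstream of SPE, and the Spätzle relative spz3. The protease grass was at 49.1 and 44.3 FPKM with phenotype, against 58.6 and 73.0 FPKM without phenotype (log2 fold change -0.48, adjusted p = 0.173, limma), and modSP at 39.5 and 35.6 FPKM with phenotype, against 44.5 and 49.5 FPKM without phenotype (-0.32, adjusted p = 0.187). Both were lower with no overlap, whereas spirit, another protease gene of the cascade named here after its values were seen, was higher with no overlap, at 14.95 and 14.5 FPKM with phenotype and 13.9 and 12.1 FPKM without phenotype (log2 fold change 0.17, adjusted p = 0.324, limma).

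Of 27 further Imd genes 25 were found and tested, 0 passed with limma, 9 were higher and 7 lower with no overlap (36.0% and 28.0%, beside 41.3% and 18.3% of all genes), and the median log2 fold change was 0.01. The inhibitor of apoptosis gene Iap2, an E3 ligase that acts with Imd and Dredd, was at 63.6 and 71.2 FPKM with phenotype and 55.4 and 56.3 FPKM without phenotype (log2 fold change 0.26, adjusted p = 0.208, limma). The ubiquitin-conjugating enzyme gene eff was at 185 and 188 FPKM with phenotype, against 220 and 278 FPKM without phenotype (log2 fold change -0.41, adjusted p = 0.203, limma). Unadjusted limma p was under 0.05 for 4 higher and 1 lower of the 25 (16.0% and 4.0%, beside 16.0% and 6.67% of all genes). Of 16 further JAK-STAT genes 13 were tested, 0 passed, and 8 were higher and 1 lower with no overlap (61.5% and 7.69%, beside 41.3% and 18.3% of all genes), with a median of 0.11, beside 0.07 over all genes. The negative regulator gene et, which encodes a shortened receptor, was at 9.11 and 8.2 FPKM with phenotype and 7.51 and 5.66 FPKM without phenotype. The repressor gene ken was the lower one, at 13.5 and 10.6 FPKM with phenotype, against 15.6 and 20.6 FPKM without phenotype.

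The effector peptide genes, which the pathways switch on, spread far more than the pathway genes. Of 28 listed, 24 were tested and 0 passed with limma, 11 were higher and 0 lower with no overlap (45.8% and 0.0%, beside 41.3% and 18.3% of all genes), and the median log2 fold change was 0.59. At an unadjusted limma p under 0.05 there were 6 higher and 0 lower (25.0% and 0.0%, beside 16.0% and 6.67% of all genes). Mtk, for the antifungal peptide Metchnikowin, was at 301 and 694 FPKM with phenotype, against 45.7 and 72.5 FPKM without phenotype (log2 fold change 2.97, adjusted p = 0.126, limma). DptB, for a diptericin, was at 182 and 449 FPKM with phenotype, against 44.8 and 91.9 FPKM without phenotype (2.14, adjusted p = 0.161, limma). IM18, for an immune induced peptide, was at 76.5 and 156 FPKM with phenotype, against 12.3 and 17.6 FPKM without phenotype (2.81, adjusted p = 0.119, limma). The groups did not overlap in these 3, and repeat 2 was above repeat 1 in both groups. In 13 of the 24 the groups overlapped, and 4 had a log2 fold change under 0, CecA1, CecA2, CecB and IM1. IM3, the most abundant of the list, was at 2199 and 2511 FPKM with phenotype and 1962 and 2034 FPKM without phenotype.

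Genes reported as JAK-STAT targets were split. Of 13, 9 were tested and 0 passed with limma, 3 were higher and 3 lower with no overlap (33.3% each, beside 41.3% and 18.3% of all genes), and the median was -0.07. Among the stress peptide genes of the Turandot family, TotX was at 87.8 and 102 FPKM with phenotype, against 50.4 and 40.0 FPKM without phenotype (log2 fold change 1.06, adjusted p = 0.121, limma). TotA was at 134 and 203 FPKM with phenotype, against 299.7 and 273 FPKM without phenotype (-0.79, adjusted p = 0.169, limma). TotM was at 3.06 and 2.95 FPKM with phenotype and 6.05 and 39.6 FPKM without phenotype. Members of a single family therefore stood on opposite sides, each with no overlap between the groups.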

How the data were processed

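mRNA was measured in 4 libraries of 10 adult male heads each, 2 with and 2 without phenotype, labelled as biological repeats; p-values measure the spread between these libraries only. The authors aligned polyA-selected reads with Bowtie 2 to RefSeq mRNAs of dm6 and quantified them with RSEM, with versions not given in the sources used here. Beside dm6 the submitters' notes name dm3, without a role. Each deposited value is the FPKM of a gene. Counts were not used here, so the count model of the study could not be repeated.

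The 38 genes and all gene lists were chosen with earlier results of these data known. The test was a two-sided linear model from limma 3.58.1 under R 4.3.3, with trended eBayes, on log2(FPKM + 1) of the 10194 genes averaging 1 FPKM or more, with a Benjamini-Hochberg threshold of 0.1, and it was tested on simulated data. Tables were made with Python 3.11.15 and pandas 2.3.3. In each role, the gene of highest level and the gene of largest difference were described in full. From other lists only a selection was named, and it did not follow a fixed rule. Left out were Drsl4, brm and asrij, with a smaller p than some genes named from their lists. Several Toll genes with a smaller p than spirit were not described either, among them smt3, Toll-6, Pli, Gprk2, lwr and Traf6. The genes of highest level smt3, Stam and vir-1 were left out as well. Positions are those of the Ensembl annotation of dm6. Alternatives were another pseudocount, filters, scalings, a fit without trend, a replicate block and leaving out each library. Promoter motifs were not analysed here. The value of 1 read was taken from the lowest FPKM of 1222 genes with a single short transcript.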

Additional observations from a re-analysis of the deposited data

How the results depend on the processing

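The absence of calls among the 36 genes held with a pseudocount of 0.1, without the filter, with both other scalings and without the trend. It also held with a filter of 5 FPKM for 35 of the 36, since PGRP-SC1b was removed. A threshold of 0.05 is stricter than 0.1 and so could add no call. Numbers of calls in the whole table moved between these settings, from 9 (6 higher and 3 lower) to 23 (13 and 10) with the pseudocount of 0.1, 3 (2 and 1) without the filter, 109 (66 and 43) with the filter of 5 FPKM, 4 (3 and 1) with median ratio scaling, 6 (5 and 1) with upper quartile scaling and 5 (3 and 2) without the trend. With single libraries left out, the genes that passed changed with the library, as said above. Genes with no overlap then numbered 10 to 14 higher (47.0% to 56.6% of all genes). Lower ones numbered 14 to 19 (25.5% to 31.7% of all genes). Fewer libraries make such separation easier. The median log2 fold change ran from -0.056 to 0.018. With median ratio scaling 17 genes were lower with no overlap, the median was -0.10, and the sign turned for Dif (-0.058), GNBP3 (-0.0031) and tub (-0.023). Leaving out libraries also turned the sign of small differences, over ranges of -0.057 to 0.11 for Dif, -0.11 to 0.064 for GNBP1, -0.028 to 0.19 for GNBP3, -0.93 to 1.30 for PGRP-SC2, -0.13 to 0.10 for SPE, -0.066 to 0.24 for Socs36E, -0.068 to 0.018 for Tl, -0.069 to 0.028 for ird5, -0.069 to 0.063 for psh and -0.11 to 0.019 for spz. The cause of these shifts was not tested. The labels do not state whether the repeat numbers pair the samples. The deviations of same-numbered libraries correlated at -0.129 over genes, which cannot settle it. A fit with the replicate block called 0 of the 36 and 0 genes in all. A crossed replicate block, chosen after seeing the data, called PGRP-SB1 and PGRP-SC1b, 2 of the 36, beside 404 of all 10194 genes. Leaving out the 4 rows that share sequence or exons, also chosen after seeing the data, gave a median of -0.02. With 2 libraries per group and unknown read numbers, a missed threshold does not show that levels were equal.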
